A study of Saccharomyces cerevisiae with 4 samples.

Results

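MG.1 was the largest of the 3 subclusters that the study's clustering found among *Saccharomyces cerevisiae* cells given mycophenolic acid (MPA) together with guanine. It was described here gene by gene against DMSO.1, the larger subcluster of the vehicle-treated cells, and against MG.2, the second subcluster of its own library. The members were the 166 cells that carried the label MG.1 in the deposited cell table, out of 844 cells in all and out of 268 in their library. They were set beside 177 cells labelled DMSO.1 and 77 labelled MG.2. The authors had obtained these labels with SC3, a consensus clustering method, from the transcript counts of each library by itself. The members were thus chosen by the same counts that are reported below. Every difference given here is therefore a description of the labelled cells and not a test.

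The study grew an isogenic haploid laboratory strain for 18 h in CSM medium with glucose and either MPA and guanine, MPA alone, guanine alone or DMSO, at 10 µM as the labels state it. By the study's methods both media with MPA also held DMSO, so MG.1 and DMSO.1 cells shared the vehicle. No DMSO is listed there for guanine alone. The strain, given as WT in the labels, was BY4741 (*MATa his3Δ1 leu2Δ0 met15Δ0 ura3Δ0*) by the study's methods, so the DMSO cells carried the same auxotrophies as the cells given MPA. Each condition gave 1 yeastDrop-Seq library, a droplet method in which every transcript copy caught on a barcoded bead counts as 1 unique molecular identifier (UMI). The treatment, the culture and the library cannot be told apart in a design with 1 library per condition, and counting error was the only error that could be measured.

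MPA inhibits IMP dehydrogenase, the enzyme (Imd) that turns IMP into XMP on the way to GMP, and Gua1 then makes GMP from XMP. Guanine in the medium enters the cell through the purine permease Fcy2 and can be turned into GMP by the phosphoribosyltransferase Hpt1, which bypasses the inhibited step. Ribosomal protein genes are among the most transcribed genes of growing yeast, and heat shock and environmental stress genes are a separate set of genes that growing cells keep low.

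The cells of MG.1 held 193781 UMIs in sum, those of MG.2 69653 and those of DMSO.1 245226. The median cell had 1097.5 UMIs and 633.5 genes in MG.1, 807 UMIs and 475 genes in MG.2, and 1304 UMIs and 627 genes in DMSO.1. When each cell was thinned to 400 UMIs, the median was 302 genes in MG.1 (163 cells), 284 in MG.2 (75 cells) and 275 in DMSO.1 (177 cells), so MG.1 spread its UMIs over more genes at equal depth. No barcode was shared between libraries, and 1 MG.1 cell had over 10% of its UMIs on a single gene. All 7 genes specific to *MATa* cells were in the table and 6 of them had UMIs in MG.1, with a sum of 1868 CPM in MG.1, 1436 in MG.2 and 1533 in DMSO.1, where CPM are UMIs scaled to a total of 1000000 per subcluster. *MFA2* was listed at 0 in MG.1, as was *SAG1*, the 1 *MATalpha*-specific gene in the table. Both were listed at 0 in MG.2 too, and in DMSO.1 *MFA2* had 7 UMIs and *SAG1* 6. Of the genes deleted in the strain, *HIS3* had 56 UMIs (289 CPM) in MG.1, 45 UMIs in MG.2 and 39 UMIs in DMSO.1. Its allele is a partial deletion, so these counts neither meet nor go against the label. The other deleted genes, *LEU2*, *MET17* (*MET15*) and *URA3*, were not in the table.

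Summed over cells and scaled to CPM, 1655 of the 4777 genes of the table had UMIs in both MG.1 and DMSO.1 and at least 50 in the pair. Of these, 299 (18.1%) were at least 2-fold higher in MG.1 and 134 (8.1%) at least 2-fold lower. Because the labels came from these counts, nothing is read from these shares. They are the background of every list count over DMSO.1 below. The median gene was 0.37 higher on the log2 scale. Measured from that median, 134 genes were at least 2-fold above it and 243 at least 2-fold below it. With totals taken without ribosomal protein genes the counts were 132 and 244, and with TMM factors, which shift every ratio by -0.45, they were 111 and 265. List medians are therefore to be read from the 0.37 of all genes as their baseline, and not from 0. At the minimum of 50 UMIs, the 19 genes with exactly 50 had a median log2 ratio of 0.34 and the 24 genes with 49, which were left out, 0.28.

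The genes for ribosomal proteins had the lowest medians of the 37 gene lists over DMSO.1. Of 54 genes for proteins of the small subunit with a ratio, 37 were at least 2-fold lower than in DMSO.1 and none was higher, with a median log2 ratio of -1.18. Of 74 for the large subunit, 51 were lower and 1 was higher, with a median of -1.18. The exception was *RPL15B*, named after its values were seen, one of the paired genes for Rpl15. Together 88 of the 134 genes in the lower class encoded ribosomal proteins.

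In sum the 137 ribosomal protein genes of the table took 16.4% of the UMIs of MG.1, 27.5% of those of MG.2 and 35.5% of those of DMSO.1. The log2 ratio of this sum was -1.11 (95% counting interval -1.13 to -1.09) over DMSO.1 and -0.74 (-0.77 to -0.72) over MG.2. The other subclusters lay at 13.9% in MG.3, 30.8% in MPA.1, 38.5% in Guanine.1, 35.1% in Guanine.2 and 26.1% in DMSO.2. MG.1 was thus lower than every subcluster outside its own library, and within it only the 25 cells of MG.3 were lower.

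The difference ran through nearly all of the cells. The share of ribosomal protein UMIs in a cell ran from 1.86% to 32.0% in MG.1 with a median of 15.7%, from 8.64% to 48.0% in MG.2 with a median of 27.1%, and from 12% to 50.6% in DMSO.1 with a median of 36.4%. In MG.1, 165 of 166 cells lay below the lower quartile of DMSO.1, and in MG.2 55 of 77 did. Still, the ranges overlapped, and 44 MG.1 cells lay below the lowest DMSO.1 cell. With all cells thinned to 400 UMIs the medians were 16.0% in MG.1, 27.2% in MG.2 and 36.2% in DMSO.1.

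**Figure D1:**
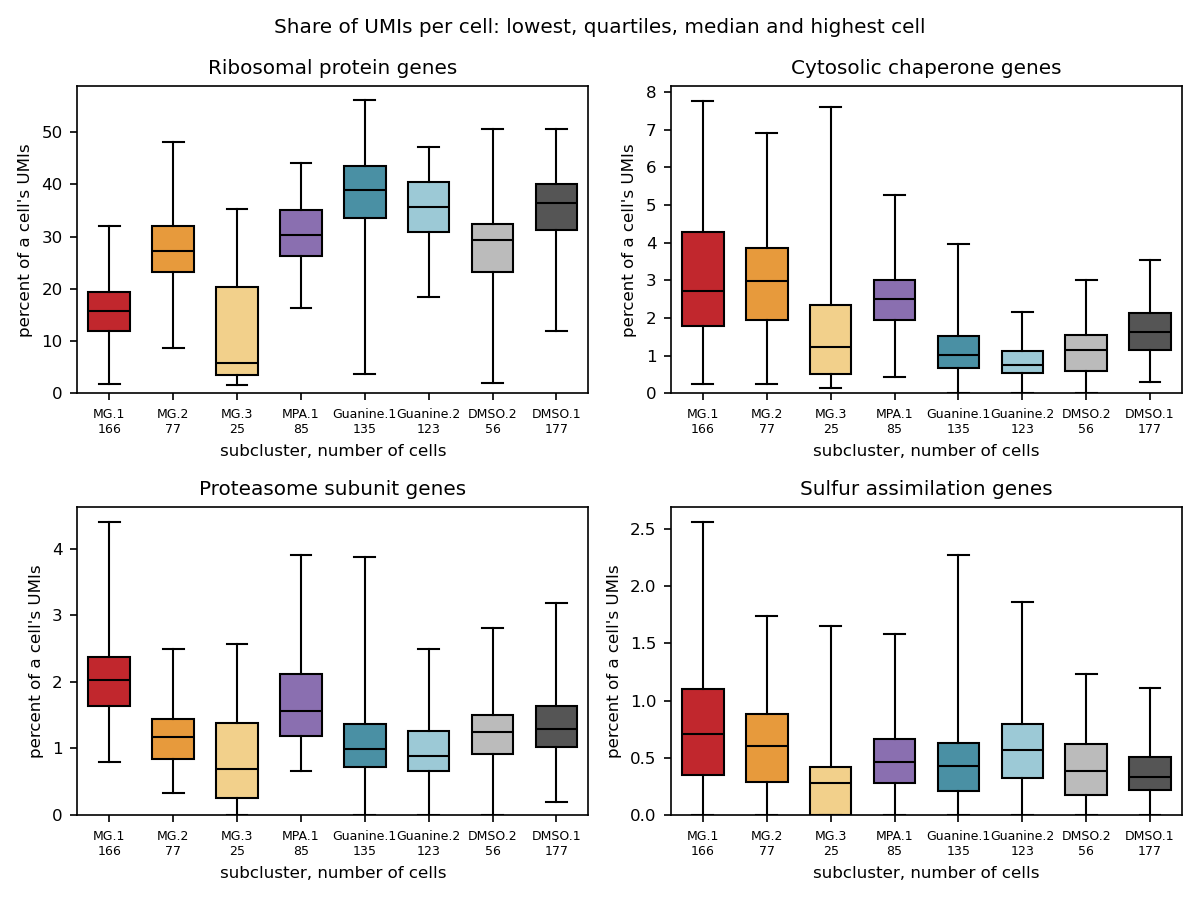
Share of each cell's UMIs on ribosomal protein, chaperone, proteasome and sulfur assimilation genes (y axes, percent) in the 8 subclusters (x axes, with the number of cells). Boxes show the quartiles and median and whiskers the lowest and highest cell. Shares are of all UMIs and were not corrected for the ribosomal protein share. The MG.1 box for ribosomal protein genes lies at 11.9% to 19.5%, under those of MG.2 and DMSO.1, and its proteasome median of 2.02% is the highest of the 8.

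The 12 genes with the lowest upper bounds of the interval over DMSO.1 all encoded ribosomal proteins. By the ratio alone the order differs, and the lowest ribosome assembly gene lay at -1.79. *RPS19A*, for a protein of the small subunit, had 346 CPM in MG.1, 1062 in MG.2 and 1529 in DMSO.1, a log2 ratio to DMSO.1 of -2.14 (-2.54 to -1.77). Its near-identical copy *RPS19B* had 583 CPM in MG.1, 1436 in MG.2 and 1831 in DMSO.1. The reads of such pairs can be split between copies by the counting, and 53 of the 137 genes have a copy of at least 90% identity. *RPS16B*, *RPL12A*, *RPS6A*, *RPS29A*, *RPS8B*, *RPS27B*, *RPL20B*, *RPL13A*, *RPS22A* and *RPS26B* completed the group, with log2 ratios between -1.81 and -1.54. All 12 were lower in MG.1 than in MG.2 and lower in MG.2 than in DMSO.1, so MG.2 stood between. MG.1 had the lowest level of the 8 subclusters for 2 of them.

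Genes that build or serve the ribosome were lower to a smaller degree. The 35 ribosome assembly genes had a median of -0.71 over DMSO.1 with 6 at least 2-fold lower and none higher. Over MG.2 their median was -0.16, and 0.05 when genes of at least 20 UMIs were used. *NHP2*, for a core protein of H/ACA snoRNPs, had 1032 CPM in MG.1, 589 in MG.2 and 1497 in DMSO.1. The 23 genes for translation factors had a median of -0.42 over DMSO.1, with 3 lower and 1 higher, and *EFB1*, the exchange factor of elongation, a ratio of -0.76 (-0.92 to -0.61). The 5 chaperones that sit on the ribosome had a median of -0.58, led by the Hsp70 gene *SSB2* at -1.06 (-1.46 to -0.66), and the 17 genes for tRNA charging one of -0.30 with none past 2-fold. *HAS1*, for an RNA helicase of ribosome assembly, and *RPS14B* were listed at 0 in MG.1, and in DMSO.1 *HAS1* had 54 UMIs and *RPS14B* 73. Every gene that a library lists above 0 reached 2 UMIs in a cell of it, so a listed 0 may hide single UMIs, and no ratio was formed.

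**Figure D2:**
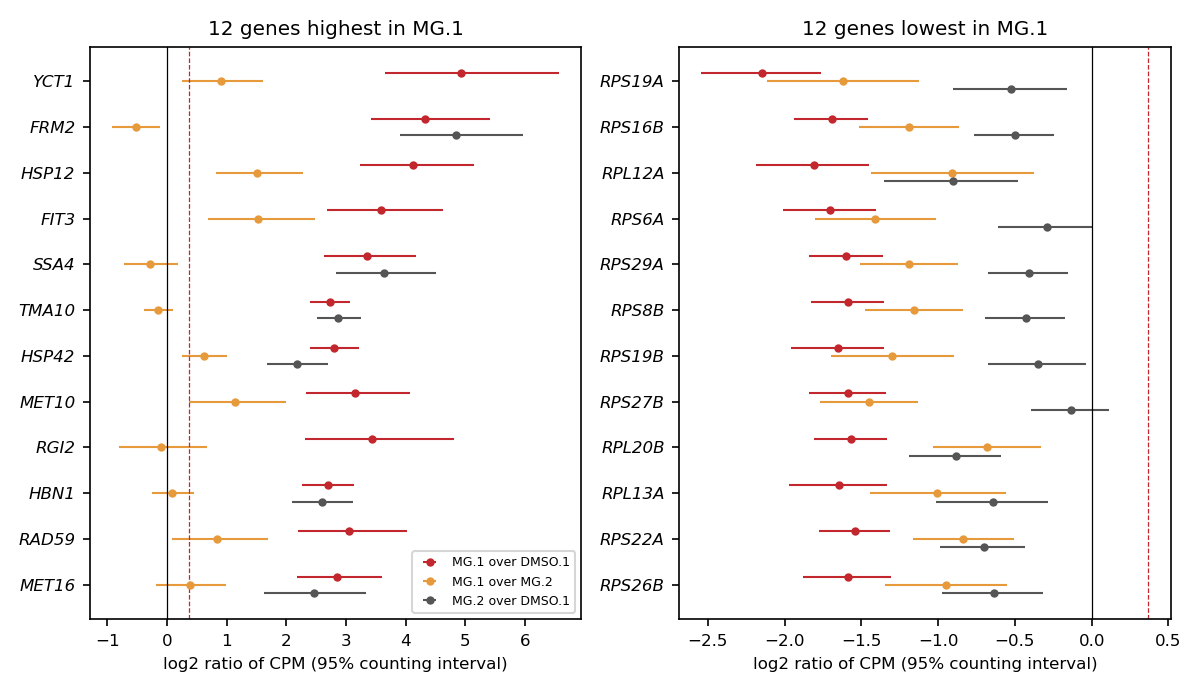
Log2 ratio of CPM (x axes) with its 95% counting interval for the 12 genes highest and the 12 lowest in MG.1 by the bound of the ratio to DMSO.1 (y axes). Red is MG.1 over DMSO.1, orange MG.1 over MG.2 and grey MG.2 over DMSO.1, where a gene had at least 50 UMIs in the pair, and the dashed line is the median of all genes, 0.37. The red points lie between 2.69 and 4.92 on the left and between -2.14 and -1.54 on the right.

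Heat shock and stress genes stood at the other end, where the 12 highest genes were taken by the lower bound of the interval. Among the 12 genes highest over DMSO.1 were *SSA4*, a stress-inducible cytosolic Hsp70, *HSP42*, a small heat shock protein that gathers misfolded proteins, and *HSP12*, a small membrane-associated stress protein. *SSA4* had 712 CPM in MG.1, 861 in MG.2 and 69.3 in DMSO.1, a log2 ratio to DMSO.1 of 3.36 (2.63 to 4.18). *HSP42* had 1677 CPM in MG.1, 1091 in MG.2 and 241 in DMSO.1, a ratio to DMSO.1 of 2.80 (2.40 to 3.23). *HSP12* had 779 CPM in MG.1, 273 in MG.2 and 44.9 in DMSO.1, a ratio of 4.12 (3.24 to 5.15). UMIs of *HSP12* were found in 21.7% of MG.1 cells, 11.7% of MG.2 cells and 3.39% of DMSO.1 cells. A single MG.1 cell held up to 15 of them. *SSA4* was found in 34.3% of MG.1 cells and *HSP42* in 59.6%. The summed levels of *HSP12* and *SSA4* in MG.1 thus came from a minority of its cells. Against MG.2 these stress genes parted ways. The interval of *SSA4* took in 0 at -0.27 (-0.72 to 0.19), while *HSP42* was higher in MG.1 at 0.62 (0.26 to 1.0) and *HSP12* at 1.51 (0.82 to 2.29).

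The DNA before these genes is shown because each held letters known from stress promoters. Windows of 250 bases that leave out the 150 bases next to the start codon were read from the RefSeq sequence of R64, the build of the files. Capitals mark TTCNNGAA, a pair of heat shock element units, and AGGGG, the core of the stress response element (CCCCT on the other strand), searched on both strands.
SSA4, chrV:364189-364438, plus strand: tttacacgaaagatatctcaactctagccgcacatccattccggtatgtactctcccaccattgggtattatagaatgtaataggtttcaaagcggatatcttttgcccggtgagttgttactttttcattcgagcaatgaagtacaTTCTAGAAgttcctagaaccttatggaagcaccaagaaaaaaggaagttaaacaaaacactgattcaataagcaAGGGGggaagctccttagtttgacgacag
HSP42, chrIV:806221-806470, plus strand: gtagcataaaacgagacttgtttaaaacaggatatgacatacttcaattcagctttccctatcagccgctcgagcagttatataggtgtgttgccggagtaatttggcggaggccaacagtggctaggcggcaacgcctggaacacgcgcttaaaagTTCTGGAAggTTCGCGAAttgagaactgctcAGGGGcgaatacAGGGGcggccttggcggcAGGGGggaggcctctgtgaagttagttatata
HSP12, chrVI:106856-107105, plus strand: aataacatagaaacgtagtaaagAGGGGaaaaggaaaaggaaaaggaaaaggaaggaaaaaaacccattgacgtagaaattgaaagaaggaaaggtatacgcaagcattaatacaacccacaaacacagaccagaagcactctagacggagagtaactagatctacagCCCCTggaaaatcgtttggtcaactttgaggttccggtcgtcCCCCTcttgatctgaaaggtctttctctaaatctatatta
*HSP42* held TTCNNGAA 2 times and AGGGG 3 times, *SSA4* each of them 1 time, and *HSP12* AGGGG 3 times and no TTCNNGAA. Over the 6001 protein-coding genes with a window, 11.3% held TTCNNGAA and 19.96% held AGGGG. Of the Hsp70 list 7 of 10 windows held TTCNNGAA, of the Hsp90 list 5 of 10 and of the disaggregase list 5 of 7. AGGGG was in 32.1% of the windows of genes at least 2-fold higher in MG.1 than in DMSO.1, in 16.9% of those at least 2-fold lower and in 21.9% of all with a ratio. TTCNNGAA was in 13.3% of the windows of the higher genes, 16.9% of those of the lower genes and 12.1% of all with a ratio. These matches describe letters and not bound sites.

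The Hsp70 and disaggregase lists had higher medians than all genes over DMSO.1 and lower ones over MG.2, and for the disaggregase list the second of these turned with the genes used, as given with the runs of adenine below. Of 10 genes with a ratio (12 listed) for Hsp70, Hsp110 and J-proteins, 3 were at least 2-fold higher than in DMSO.1, where 18.1% of all genes were, with a median of 0.58. Over MG.2 the median was -0.38 and none was past 2-fold. *SIS1*, an essential J-protein, had 1703 CPM in MG.1, 1407 in MG.2 and 701 in DMSO.1, whereas the constitutive Hsp70 *SSA2* had 1109.5 CPM in MG.1, 1679.8 in MG.2 and 1166 in DMSO.1. Of the 7 genes (of 8 listed) for disaggregases, small heat shock and protein sorting factors, 5 were higher than in DMSO.1 (median 1.32) and none was past 2-fold against MG.2 (median -0.29). *BTN2*, whose product sorts misfolded proteins into deposits, had 3153 CPM in MG.1, 3245 in MG.2 and 1028 in DMSO.1.

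Of the 2 cytosolic Hsp90 genes the stress-inducible one differed more. *HSP82* had 3602 CPM in MG.1, 4077 in MG.2 and 1321 in DMSO.1, a ratio to DMSO.1 of 1.45 (1.25 to 1.64), and the constitutive *HSC82* had 5713 CPM in MG.1, 5542 in MG.2 and 4123 in DMSO.1, a ratio of 0.47 (0.35 to 0.59). These genes are near-identical copies. Their cochaperone *STI1* had a ratio to DMSO.1 of 1.14 (0.83 to 1.45). The 6 subunits of the chaperonin TRiC, which folds actin and tubulin, had none past 2-fold and a median of -0.35 relative to that of all genes. In the endoplasmic reticulum, the Hsp70 gene *KAR2* had 857 CPM in MG.1, 316 in MG.2 and 322 in DMSO.1, with a log2 ratio to DMSO.1 of 1.41 (1.02 to 1.82) and to MG.2 of 1.44 (0.79 to 2.15).

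Per cell, these chaperone lists (Hsp70, Hsp90 and disaggregase) together took a median of 2.71% of the UMIs in MG.1, 2.97% in MG.2 and 1.62% in DMSO.1, and up to 7.77% in 1 MG.1 cell. MPA.1 had a median of 2.49% and MG.3 one of 1.24%. The medians of MG.1, MG.2 and MPA.1 were the 3 highest of the 8 subclusters, and that of MG.3, from the same library as MG.1, lay below DMSO.1.

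The proteasome, the protease that degrades ubiquitin-tagged proteins, had higher median ratios in MG.1 than all genes did, against both other subclusters, but no larger share of genes past 2-fold. Of 32 subunit genes with a ratio (33 listed), 31 were above 0 over DMSO.1 with a median of 0.54, 21 of them above the 0.37 of all genes. Only 3 (9.38%) were past 2-fold, fewer than the 18.1% of all genes. Over MG.2, 29 were above 0 and 27 above the 0.21 of all genes, with a median of 0.79. There 6 (18.8%) were past 2-fold, close to the 19.9% of all genes in that comparison. *RPN2*, a scaffold subunit of the regulatory particle, had 1599.7 CPM in MG.1, 373 in MG.2 and 681 in DMSO.1, and the short gene *SEM1*, for a small lid subunit, 1146 CPM in MG.1, 603 in MG.2 and 799 in DMSO.1. The per-cell share of the list had a median of 2.02% in MG.1, 1.17% in MG.2 and 1.29% in DMSO.1. Like every share given here it is of all UMIs and was not corrected for the lower ribosomal protein share of MG.1. The quartiles of MG.1 (1.64% to 2.38%) did not meet those of MG.2 (0.838% to 1.44%), although the whole ranges overlapped.

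Genes of ubiquitin and its handling before the proteasome had 3 of 9 past 2-fold over DMSO.1 (median 0.64) and 4 of 7 over MG.2 (median 1.10), against 18.1% and 19.9% of all genes. *UBI4*, the stress-inducible polyubiquitin gene, had 676 CPM in MG.1, 273 in MG.2 and 167 in DMSO.1, a ratio to DMSO.1 of 2.02 (1.5 to 2.56). *UFD1*, a cofactor of the segregase Cdc48, had 614 CPM in MG.1, 287 in MG.2 and 261 in DMSO.1. *CDC48* itself had a ratio to MG.2 of 1.12 (0.59 to 1.68) and a ratio to DMSO.1 of 0.44 (0.15 to 0.73), close to the median of all genes. Of the proteasome windows, 4 of 32 held GGTGGCAAA, the element bound by Rpn4, and 0.717% of all windows did.

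Sulfur assimilation, the path that reduces sulfate for methionine and cysteine, was represented among the 12 highest genes by *MET10* and *MET16*, and the uptake of cysteine by *YCT1*. *YCT1*, for a high-affinity cysteine transporter, had 619 CPM in MG.1, 330.2 in MG.2 and 20.4 in DMSO.1 and the highest ratio of the 12 to DMSO.1, 4.92 (3.66 to 6.57). It rested on 120 UMIs in MG.1 and 5 in DMSO.1. *MET10*, a subunit of sulfite reductase, had 506 CPM in MG.1, 229.7 in MG.2 and 57.1 in DMSO.1, and *MET16*, PAPS reductase, 619 CPM in MG.1, 474 in MG.2 and 85.6 in DMSO.1. DMSO.1 had the lowest level of the 8 subclusters for each of these genes. The smaller DMSO.2 had 318 CPM of *YCT1*, 273 of *MET10* and 485 of *MET16*, all above DMSO.1. The strain carries *met15Δ0*, a deletion in the last step of sulfide incorporation, in every group.

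Their upstream windows are shown because both *MET* genes held the letters of the Cbf1 site, CACGTG, and of the Met31 and Met32 site, TGTGGC, which reads GCCACA on the other strand. These motifs were added after the highest genes had been seen and were searched on both strands, where CACGTG reads the same. Capitals mark them.
MET16, chrXVI:877783-878032, minus strand: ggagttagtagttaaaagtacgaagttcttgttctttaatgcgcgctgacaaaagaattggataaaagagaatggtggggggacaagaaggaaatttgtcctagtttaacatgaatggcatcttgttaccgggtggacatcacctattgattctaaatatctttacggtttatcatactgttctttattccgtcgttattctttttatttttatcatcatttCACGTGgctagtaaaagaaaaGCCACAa
MET10, chrVI:212912-213161, plus strand: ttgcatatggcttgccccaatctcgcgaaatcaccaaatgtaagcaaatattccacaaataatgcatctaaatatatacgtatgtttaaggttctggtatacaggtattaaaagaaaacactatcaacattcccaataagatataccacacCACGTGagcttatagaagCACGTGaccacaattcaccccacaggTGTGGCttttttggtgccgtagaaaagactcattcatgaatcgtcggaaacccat
*MET10* held CACGTG 2 times and TGTGGC 1 time, and *MET16* each 1 time. Of the 12 sulfur genes with a ratio (19 listed), 7 windows held CACGTG and 6 held TGTGGC, against 4.12% and 8.08% of all windows. Of these 12 genes, 7 were at least 2-fold higher than in DMSO.1, with a median of 1.48. *CYS3*, cystathionine gamma-lyase, had 1724 CPM in MG.1, 1608 in MG.2 and 616 in DMSO.1, and *SAH1*, which clears S-adenosylhomocysteine, 795 CPM in MG.1, 632 in MG.2 and 905 in DMSO.1. Over MG.2 the median was 0.36, and -0.15 in cells thinned to 400 UMIs, and 1 gene was past 2-fold. The per-cell share of the list had a median of 0.712% in MG.1, 0.605% in MG.2 and 0.336% in DMSO.1.

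Of the remaining genes among the 12 highest, *FRM2* and *HBN1* are neighbours that encode nitroreductase-like proteins. *FRM2* had 821 CPM in MG.1, 1177 in MG.2 and 40.8 in DMSO.1, a ratio to DMSO.1 of 4.33 (3.41 to 5.42), and *HBN1* 1424 CPM in MG.1, 1335 in MG.2 and 220.2 in DMSO.1, a ratio of 2.69 (2.27 to 3.14). DMSO.1, on 10 UMIs, had the lowest *FRM2* level of the 8 subclusters, while DMSO.2 had 227 CPM and Guanine.2 507. For *HBN1* DMSO.2 lay below DMSO.1, at 106 CPM. Against MG.2, *FRM2* was lower in MG.1 at -0.52 (-0.91 to -0.12), and the interval of *HBN1* took in 0 at 0.09 (-0.25 to 0.45). The list that holds them also holds *CYS3*, a sulfur gene given above, and *FLR1*, a drug transporter, and its median over DMSO.1 is the ratio of *CYS3*, so no list value is read here. *OYE2*, an NADPH oxidoreductase, had 1109.5 CPM in MG.1, 2197 in MG.2 and 1044 in DMSO.1. *TMA10*, for a ribosome-associated protein, had 2539 CPM in MG.1, 2814 in MG.2 and 383 in DMSO.1, *RGI2*, a gene of energy metabolism under respiration, 309.6 CPM in MG.1, 330.2 in MG.2 and 28.5 in DMSO.1, and *RAD59*, for a protein of DNA repair by strand annealing, 439 CPM in MG.1, 244 in MG.2 and 53.0 in DMSO.1.

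All 12 genes were higher in MG.2 than in DMSO.1, 8 were higher in MG.1 than in MG.2, and MG.1 was the highest of the 8 subclusters for 6. The ratios of MG.1 and of MG.2 to DMSO.1 use the same DMSO.1 cells.

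**Figure D3:**
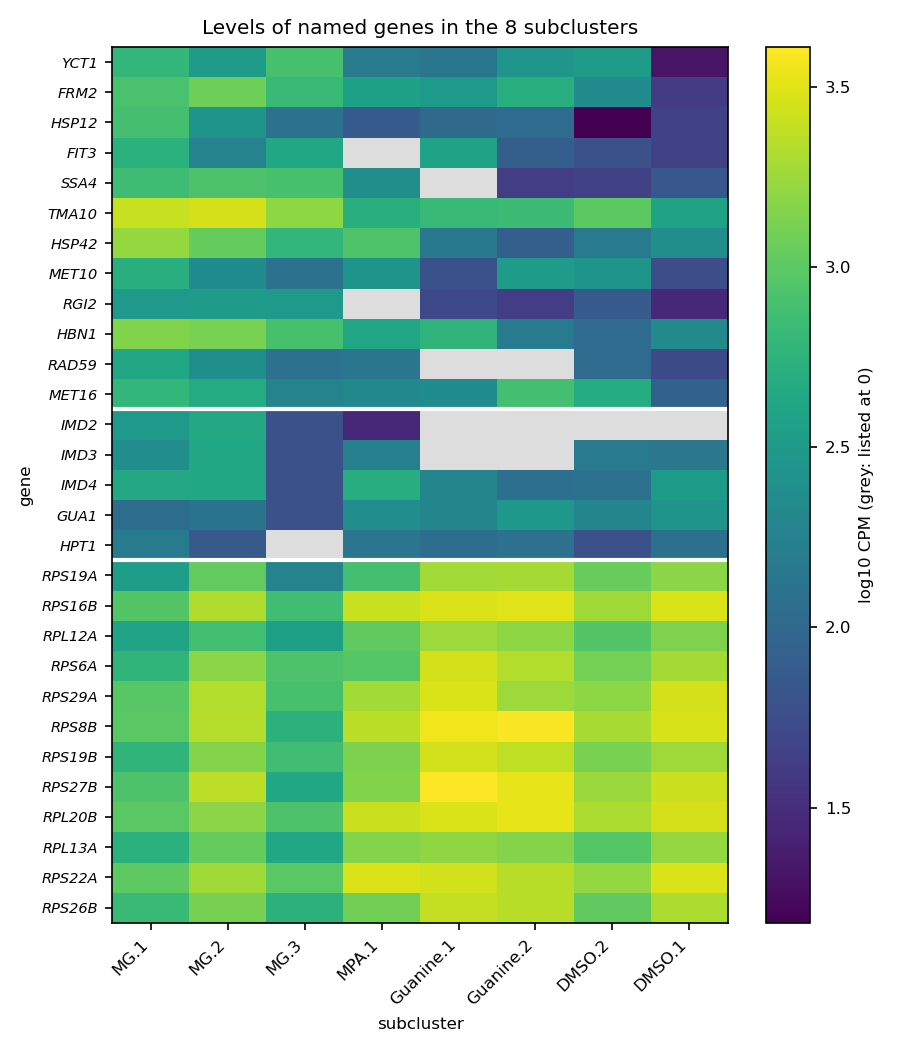
Level of the 12 highest genes, of 5 genes of GMP synthesis and salvage and of the 12 lowest genes (rows, in 3 blocks from the top) in the 8 subclusters (columns), as log10 CPM by colour, with grey for a gene listed at 0. All 12 rows of the upper block are brighter in MG.1 and MG.2 than in DMSO.1, and all 12 of the lower block are darker in them.

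Iron uptake and drug efflux genes had higher medians than all genes in MG.1 against both other subclusters. *FIT3*, a cell wall mannoprotein that retains siderophore iron, had 537 CPM in MG.1, 187 in MG.2 and 44.9 in DMSO.1, with up to 19 UMIs in 1 MG.1 cell. *FIT2* had 1337 CPM in MG.1, 689 in MG.2 and 444 in DMSO.1, and *FTR1*, the iron permease of the plasma membrane, 805 CPM in MG.1, 373 in MG.2 and 432 in DMSO.1. Of 9 iron regulon genes with a ratio (15 listed), 7 were at least 2-fold higher than in DMSO.1 (median 1.38), and 3 of 8 were so over MG.2 (median 0.94).

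The 4 genes of the drug transport list with a ratio (of 12 listed) were all above both other subclusters, with medians of 1.62 over DMSO.1 and 1.11 over MG.2. *PDR5*, the main multidrug ABC exporter, had 325 CPM in MG.1, 100.5 in MG.2 and 69.3 in DMSO.1, on 63 UMIs in MG.1, 7 in MG.2 and 17 in DMSO.1. *TPO1*, a polyamine exporter, had 403 CPM in MG.1, 158 in MG.2 and 97.9 in DMSO.1, and the ABC exporter *SNQ2* 495 CPM in MG.1, 273 in MG.2 and 216 in DMSO.1. Elsewhere *PDR5* had 29.2 CPM in MPA.1, on 3 UMIs, and 301 in Guanine.1. The share of all genes at least 2-fold higher was 18.1% over DMSO.1 and 19.9% over MG.2.

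In carbon metabolism the genes parted by pathway. No glycolytic gene was past 2-fold and the 10 had a median of -0.30 over DMSO.1. *TPI1*, triose phosphate isomerase, had 2353 CPM in MG.1, 3460.0 in MG.2 and 4482 in DMSO.1, and *ADH1*, the main alcohol dehydrogenase of fermentation, 3654 CPM in MG.1, 5901 in MG.2 and 7181 in DMSO.1. Of the fermentation and acetate list 2 of 6 genes were at least 2-fold higher, and the median lay at -0.01 relative to that of all genes. Both were aldehyde dehydrogenases, which make acetate from acetaldehyde. *ALD4*, the mitochondrial aldehyde dehydrogenase, had 2647 CPM in MG.1, 1091 in MG.2 and 783 in DMSO.1, and *ALD6*, the cytosolic one, 4655 CPM in MG.1, 1594 in MG.2 and 2247 in DMSO.1. Of the list for pyruvate entry into mitochondria 3 of 9 were, with a median of 0.70 and *PDA1*, a subunit of pyruvate dehydrogenase, at 0.15. *MPC3*, a subunit of the pyruvate carrier that is used in respiration, had 2642 CPM in MG.1, 1378 in MG.2 and 718 in DMSO.1, a ratio to DMSO.1 of 1.88 (1.63 to 2.14), and the fermentative subunit *MPC2* a ratio of 1.02 (0.84 to 1.20). *ZWF1*, the first enzyme of the pentose phosphate pathway and a source of NADPH, had 888 CPM in MG.1, 244 in MG.2 and 269 in DMSO.1, while the median of its 7 pathway genes was -0.04.

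In the pathway that MPA inhibits, *IMD2* was listed above 0 in the MPA libraries alone. *IMD2*, the IMP dehydrogenase gene whose product resists the drug, had 59 UMIs or 304 CPM in MG.1 and 445 CPM in MG.2. It had 61.1 CPM in MG.3, on 1 UMI, and 29.2 in MPA.1, on 3 UMIs. It was listed at 0 in both Guanine and both DMSO subclusters. Between MG.1 and MG.2 the log2 ratio was -0.55 (-1.20 to 0.13), which takes in 0. *IMD3* had 237 CPM in MG.1, 431 in MG.2 and 139 in DMSO.1, and *IMD4* 444 CPM in MG.1, 431 in MG.2 and 318 in DMSO.1. *GUA1*, GMP synthase, was lower in MG.1, with 108 CPM in MG.1 and 273 in DMSO.1, a log2 ratio of -1.33 (-2.12 to -0.61). MG.2 was lower than DMSO.1 too, with a log2 ratio of -1.08, so this was not particular to MG.1. In MG.1 over DMSO.1 *GUA1* was the 1 gene past 2-fold among the 8 of its list with a ratio.

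Most genes of salvage and of the kinases after GMP had intervals that took in 0. *HPT1* had 29 UMIs in MG.1 and 29 in DMSO.1, a ratio of 0.34 (-0.45 to 1.13). The permease *FCY2* had 17 UMIs in MG.1 and 42 in DMSO.1, a ratio of -0.97 (-1.87 to -0.12), lower in MG.1 beyond counting error. *GUK1*, guanylate kinase, had a ratio of -0.23 (-0.66 to 0.20), an interval that lies below the 0.37 of all genes. *YNK1*, nucleoside diphosphate kinase, had -0.20 (-1.05 to 0.63), and *XPT1*, the xanthine phosphoribosyltransferase, 0.34 (-0.44 to 1.12). The 5 genes of de novo purine synthesis with a ratio lay between 0.50 and 0.94, none past 2-fold.

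Amino acid synthesis genes stood close to the background over DMSO.1. Of 33, 5 (15.2%) were at least 2-fold higher and 2 (6.06%) lower, against 18.1% and 8.1% of all genes, with a median of -0.02 relative to that of all genes. *GDH1*, which makes glutamate from ammonium, had 490.2 CPM in MG.1, 273 in MG.2 and 1276 in DMSO.1. Over MG.2 the median was -0.56, with 7 of 28 (25%) at least 2-fold lower in MG.1 and 1 (3.57%) higher. Of all genes in that comparison 5.57% were lower and 19.9% higher.

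Stress genes outside the chaperones were mixed. Of 7 general stress genes with a ratio (20 listed), 3 were at least 2-fold higher than in DMSO.1 (median 0.92), including *PNC1*, a nicotinamidase, with 532 CPM in MG.1, 316 in MG.2 and 208 in DMSO.1. Of the thioredoxin, peroxiredoxin and superoxide dismutase genes, 1 of 10 was, with a median of -0.26 relative to that of all genes. *AHP1*, an abundant peroxiredoxin, had 18232 CPM in MG.1, 13596 in MG.2 and 15149 in DMSO.1. The core histone, vacuolar ATPase, oxidative phosphorylation, ergosterol and cell wall lists had medians over DMSO.1 between -0.52 and 0.10 relative to that of all genes, with at most 1 gene past 2-fold in each. Cell cycle lists had 3 genes of G2/M phase and 6 of M/G1 phase with a ratio, of which *DSE2*, a daughter cell glucanase, was past 2-fold at -1.01 (-1.79 to -0.27).

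**Figure D4:**
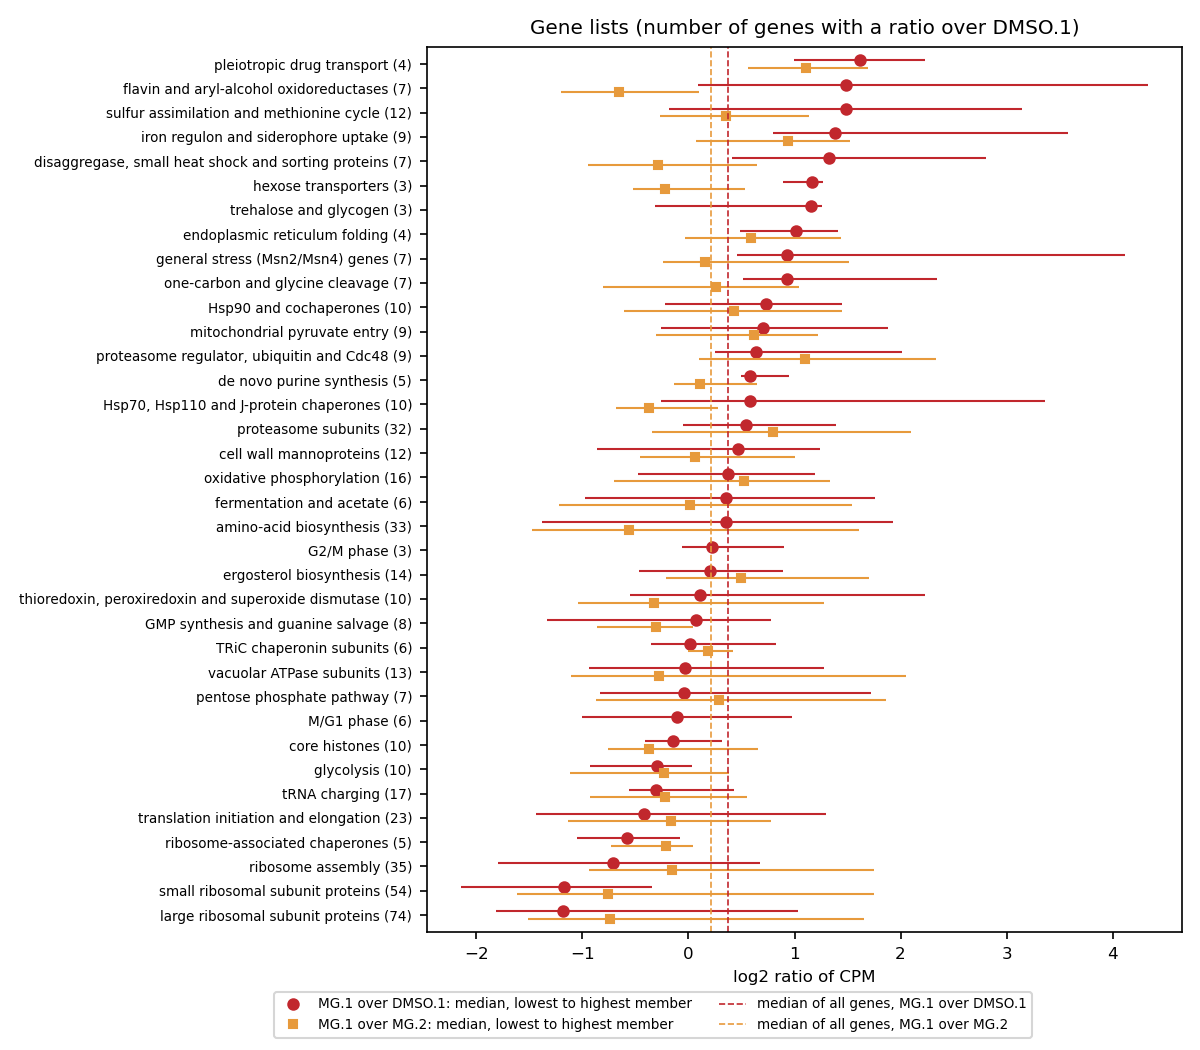
Median log2 ratio of CPM (x axis) of each gene list (y axis, with the number of genes that had a ratio over DMSO.1), red for MG.1 over DMSO.1 and orange for MG.1 over MG.2, with lines from the lowest to the highest member and dashed lines at the medians of all genes. Drug transport has the highest red median, 1.62, and the ribosomal protein lists the lowest, -1.18, while the chaperone lists for Hsp70 and disaggregases lie right of the dashed line in red and left of it in orange.

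Within the same library, 1113 genes could be set against MG.2. Of these, 221 (19.9%) were at least 2-fold higher in MG.1 and 62 (5.57%) at least 2-fold lower, with a median log2 ratio of 0.21. Again nothing is read from these shares. With TMM factors the counts were 141 and 155. At the minimum of 50 UMIs, the 26 genes with exactly 50 had a median ratio of 0.27 and the 24 left out with 49 one of 0.68. In the lower class were 16 of 54 genes of the small ribosomal subunit and 20 of 73 of the large one, and in the higher class 2 and 1. The 6 lowest genes by the upper bound of the interval were *NKP1*, *GGC1*, *YNL303W*, *RPP2B*, *RPL21A* and *RPS27B*. *RPP2B*, for a stalk protein of the large subunit, had 2338 CPM in MG.1 and 5915 in MG.2, and *NKP1*, a kinetochore gene that ends within 250 bases of *RPP2B* on the other strand, 707 CPM in MG.1 and 2326 in MG.2. Reads of such convergent pairs cannot be told apart if the counting did not use strand, and its setting is not given in the sources used here. Among the 12 genes highest over DMSO.1, *HBN1*, *MET10* and *TMA10* have such a neighbour too. So do *HRP1* and *MGR3*, which are among the 6 genes highest over MG.2 given below. *GGC1*, the mitochondrial GTP and GDP carrier, had 170.3 CPM in MG.1, 632 in MG.2 and 110.1 in DMSO.1, so here MG.2 stood apart from both.

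The 6 genes highest over MG.2 by the lower bound of the interval came from unrelated pathways. *HRP1*, for an mRNA 3′ end cleavage factor, had 1982 CPM in MG.1, 201 in MG.2 and 619.8 in DMSO.1, a log2 ratio to MG.2 of 3.30 (2.54 to 4.19). *STT4*, a phosphatidylinositol 4-kinase, had 1930.0 CPM in MG.1, 215 in MG.2 and 1566 in DMSO.1, and *YNL143C*, a gene of unknown function, 6394 CPM in MG.1, 1091 in MG.2 and 4641 in DMSO.1. For these 2 genes MG.1 was near DMSO.1 (ratios of 0.30 and 0.46) and MG.2 was low. *STH1*, the ATPase of the RSC remodeller, *MGR3*, an adaptor of a mitochondrial protease, and *GNP1*, a glutamine permease, had ratios to MG.2 of 3.17 (1.77 to 5.07), 3.35 (1.75 to 5.65) and 2.20 (1.61 to 2.85), the first of these on 4 UMIs in MG.2 and the second on 3.

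The genes highest over MG.2 held runs of adenine in their coding strands, a feature that was looked at after they had been seen. The longest run of each is shown in capitals with 12 bases on either side, as read from R64 on the coding strand. All lie within the coding sequence. The beads of the method carry oligo(dT), which pairs with poly(A) tails.
HRP1, chrXV:88112-88143, plus strand: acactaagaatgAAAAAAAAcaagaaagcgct
STT4, chrXII:739153-739184, minus strand: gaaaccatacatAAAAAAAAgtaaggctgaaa
YNL143C, chrXIV:357001-357056, minus strand: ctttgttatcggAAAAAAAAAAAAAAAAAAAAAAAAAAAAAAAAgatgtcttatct
STH1, chrIX:121229-121259, plus strand: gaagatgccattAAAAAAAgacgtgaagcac
MGR3, chrXIII:497908-497942, plus strand: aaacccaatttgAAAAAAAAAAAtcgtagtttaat
GNP1, chrIV:1468261-1468290, minus strand: tagaatattttgAAAAAAcagtggaaaaaa
The runs had 8 bases in *HRP1* and *STT4*, 32 in *YNL143C*, 7 in *STH1*, 11 in *MGR3* and 6 in *GNP1*. A run of 7 or more was found in 294 of the 1095 genes that were matched to a sequence.

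Across the matched genes the ratio climbed with the run. The median log2 ratio of MG.1 over MG.2 was -0.04 for the 513 genes with a longest run of up to 5 bases, 0.27 for a run of 6, 0.50 for 7 and 0.78 for the 139 genes with 8 or more. In the last class 38.8% of genes were at least 2-fold higher and in the first 11.3%. Without ribosomal protein genes, the medians of the same classes were 0.13, 0.43, 0.56 and 0.85.

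Gene length moved with the ratio too. By quartile of length from start to stop codon the medians were 0.15, -0.01, 0.15 and 0.79, and in the longest quartile they were 0.39 for 136 genes with runs of up to 6 and 1.01 for 139 with 7 or more. MG.1 over DMSO.1 went the same way by less, with medians of 0.26, 0.38, 0.47 and 0.52 over the 4 classes of run. MG.2 over DMSO.1, which shares the cells of both other comparisons, went the other way, with -0.01, -0.12, -0.26 and -0.24. These values are across genes, which are not independent, and the part of run and length in the named differences was not tested. Of the 32 proteasome genes, the 21 with runs under 7 and outside the longest quartile had a median of 0.70 over MG.2, against 0.05 for all 665 genes of that kind, and the 46 small subunit genes of that kind had one of -0.84. At least 2-fold higher over MG.2 were 1 of these 21 proteasome genes, 6 of all 32 and 74 of the 665. The medians of some other lists moved more when cut to such genes. Over MG.2, the median of the ubiquitin list became 0.60 (4 genes), that of the pyruvate list 0.05 (4 genes) and that of the disaggregase list 0.62 (3 genes), the last with a turn of sign. The sulfur list over DMSO.1 had 0.94 (6 genes), and no drug transport gene was of that kind.

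**Figure D5:**
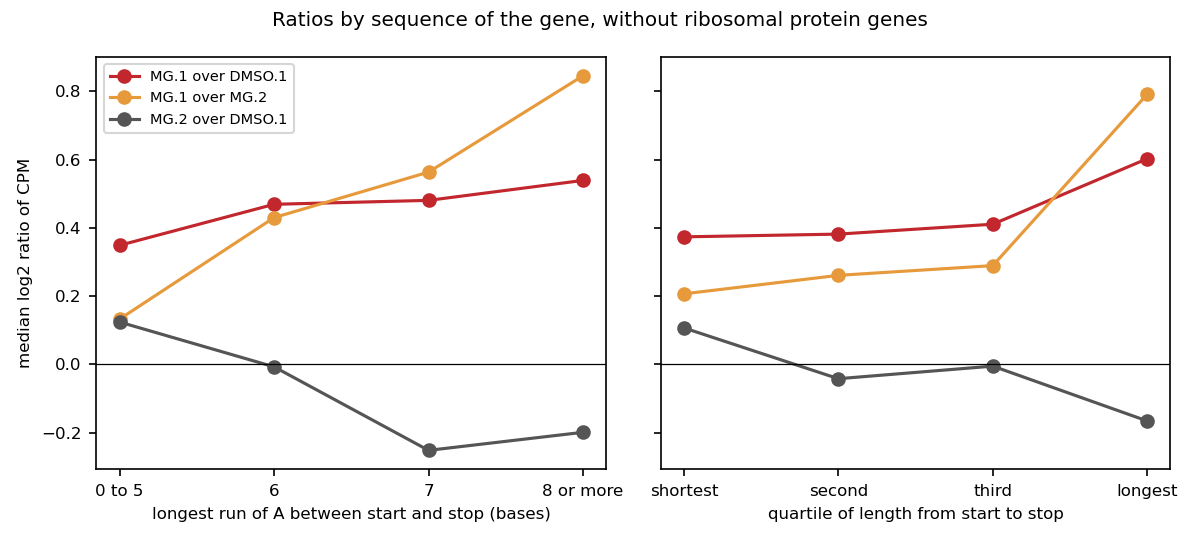
Median log2 ratio of CPM (y axes) of genes other than ribosomal protein genes, by the longest run of A between start and stop codon (left) and by quartile of that length (right), red for MG.1 over DMSO.1, orange for MG.1 over MG.2 and grey for MG.2 over DMSO.1. The orange line climbs to 0.85 at runs of 8 or more and to 0.79 in the longest quartile, and the grey line ends below 0 in both panels.

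The cells of MG.1 were not uniform in these groups. In the authors' second clustering, of all 844 cells together with k = 4, 87 MG.1 cells (52.4%) fell in cluster 4. Of the rest, 37 belonged to cluster 3, 25 to cluster 1 and 17 to cluster 2. The 87 cells had a median chaperone share of 3.90%, the cells of cluster 3 one of 1.97%, those of cluster 1 1.55% and those of cluster 2 1.99%. The sulfur share was 1.04% in the 87 cells and between 0.367% and 0.370% in the others. The ribosomal protein share was below that of DMSO.1 (36.4%) in every class, at 14.7% for cluster 4, 13.0% for cluster 3, 21.4% for cluster 1 and 18.4% for cluster 2. Proteasome shares ran from 1.51% in cluster 2 to 2.21% in cluster 4. The median cell of cluster 4 had 1163 UMIs and those of the other clusters between 894 and 1123, and the part of depth in these shares was not tested. These clusters were also made from the counts.

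MG.2 was split by the same clustering in nearly the same way, with 40 of 77 cells in cluster 4. Within cluster 4, the median chaperone share was 3.90% in MG.1 and 3.19% in MG.2, the ribosomal protein share 14.7% in MG.1 and 26.6% in MG.2, and the proteasome share 2.21% in MG.1 and 1.22% in MG.2. Of the DMSO.1 cells 161 of 177 lay in cluster 1. The 25 MG.1 cells of that cluster had a ribosomal protein share of 21.4%, against 37.3% in the DMSO.1 cells, and a chaperone share of 1.55%, against 1.59%. In this cluster the MG.1 and DMSO.1 medians, as shares of all UMIs, lay close together for chaperone transcripts and apart for ribosomal protein transcripts. The chaperone shares were not corrected for the ribosomal protein shares, so likeness relative to the other genes is not shown.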

How the data were processed

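In 4 yeastDrop-Seq libraries of BY4741 cells, the authors trimmed and aligned the reads to R64, counted UMIs with UMI-tools, filtered cells and deposited the raw counts as 1 matrix of 4777 genes and 844 cells. The deposited scores on principal components and UMAP were not used. Libraries held 279806 UMIs in 268 cells for MPA + Guanine, 102788 in 85 for MPA, 216768 in 258 for Guanine and 311199 in 233 for DMSO. No doublets were removed here, and free RNA was not separated, since no cell type of the series lacks these genes.

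Each subcluster's UMIs were added up and scaled to CPM. Ratios were taken without a pseudocount for genes with UMIs in both groups and at least 50 in the pair. The 95% intervals are exact conditional binomial ones and speak of counting error alone. No test was made, as a condition had 1 library, and "called" means 2-fold. The 12 highest and 12 lowest genes by the nearer bound of the interval over DMSO.1, the 6 highest and 6 lowest over MG.2, up to 4 members of each list with the most UMIs, every GMP gene with UMIs and the 3 genes with the most UMIs that one group lacked were named. Members and lists were chosen with earlier results of these data known. The ratio code was tested on simulated data. Of the names in the matrix 4606 matched RefSeq, whose R64 sequence gave the windows and runs.

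Alternatives were TMM factors (edgeR 4.0.16 in R 4.3.3), totals that left ribosomal protein genes out, the mean of cells' CPM, minimums of 20 and 100 UMIs, cells left out by UMIs or by a dominant gene, thinned cells (seed 1), all DMSO cells, and, added after the data were seen, ratios over the median. Python 3.11.15, numpy 2.4.6, scipy 1.17.1, pandas 2.3.3, biopython 1.88 and matplotlib 3.10.9 were used.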

Additional observations from a re-analysis of the deposited data

How the results depend on the processing

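No paired analysis was possible because each condition had 1 library and no test was made. Of the 299 genes at least 2-fold higher in MG.1 than in DMSO.1, 111 stayed with TMM factors, 132 with totals without ribosomal protein genes and 134 relative to the median of all genes, a setting chosen after seeing the data. The count was 600 at a minimum of 20 UMIs, 120 at 100 and 72 in cells thinned to 400 UMIs, where fewer genes pass the minimum. The count of lower genes was 265 with TMM factors, 244 with totals without ribosomal protein genes and 243 relative to the median, against 134. Over MG.2, 141 genes were higher with TMM factors, 640 at a minimum of 20 UMIs, 75 at 100 and 50 in thinned cells, against 221. The lower genes numbered 155 with TMM factors, 122 with totals without ribosomal protein genes, 128 at a minimum of 20 UMIs and 124 relative to the median, against 62. Genes per cell were 168 in MG.1, 162 in MG.2 and 159 in DMSO.1 at 200 UMIs, and 419 in MG.1, 384 in MG.2 and 373 in DMSO.1 at 600. The median of the trehalose and glycogen list over DMSO.1, above 0 as deposited, was -0.37 in thinned cells, where 1 gene was left. With all DMSO cells as comparator 263 genes were higher and 118 lower. Counts of genes with few UMIs limit all ratios, and the spread between cultures could not be measured.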
